A study of Homo sapiens with 6 samples.

Results

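The 43 genes described here are parts of the transforming growth factor beta (TGF-beta) and bone morphogenetic protein (BMP) pathways, taken by name from a table of 52401 genes, and all 43 were found. They comprise 19 genes of the TGF-beta and activin arm, 19 of the BMP arm and 5 that serve both. RNA was measured in MCF10A cells, an immortalised, non-tumorigenic human breast epithelial line. The control group was a line that stably expressed mCherry from 1 retroviral vector under puromycin selection. The flotillin group was a line that stably co-expressed Flotillin1-HA and Flotillin2-mCherry from 2 retroviral vectors under puromycin and hygromycin selection. Flotillins are scaffold proteins of membrane microdomains that act in endocytosis. Both lines grew in DMEM/F-12 with 5% horse serum, insulin at 10 µg/ml, EGF at 20 ng/ml, hydrocortisone at 0.5 µg/ml and cholera toxin at 100 ng/ml. No added TGF-beta or BMP ligand is named in the labels.

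Each group was 1 line with its own vectors and drugs, so the flotillin level, the number of vectors and hygromycin cannot be told apart. There were 3 libraries per group, and nothing in the labels says that they came from separate cultures; p-values therefore describe only how far these samples differed, which can be technical. FLOT1 and FLOT2 rose by 3.38 and 3.35 on the log2 scale, in the direction of the labels. The deposited table gives group means of normalized read counts, from which the reads of each library were recovered; libraries are called 1 to 3 within a group, and values are listed in that order. The genes with recovered reads held 17445130 to 18629354 reads per library. Basal mammary markers were present in both groups, and 6 of 9 were lower in flotillin cells (KRT14, KRT17, TP63, LAMB3, CDH3 and EGFR), with summed group means of 176711 in control and 152510 in flotillin. The falls reached 69.0-fold for TP63 (1765 to 25.6), 19.2-fold for KRT17 and 13.9-fold for CDH3, KRT14 had overlapping groups, and KRT5 (48381 to 67351) and KRT6A (12744 to 26667), neither called, held much of the sum. Fibroblast markers summed to 4967 in control and 42694 in flotillin; 4 of the 8 (COL1A2, COL3A1, PDGFRA and THY1) had means under 10 in both groups, while DCN alone held 4659 and 42467, LUM (11.6 to 58.3) and PDGFRB (24.4 to 74.4) were also higher in flotillin, and COL1A1 (267.6 to 87.7) was lower. Endothelial markers summed to 696.4 and 626.6, nearly all from KDR and TEK, with CDH5 and VWF under 10 in both groups. Immune markers summed to 1100 and 1398, nearly all from CD68 and CSF1R, of which CSF1R was lower in flotillin (344.1 to 88.9), with CD3E and PTPRC under 10 in both groups. Whether these shifts have a part in the pathway results was not tested. In bulk RNA, fewer cells of a type and less RNA per cell cannot be told apart.

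In this pathway, a dimeric ligand brings together type II and type I receptors, which are kinases, and the type I receptor phosphorylates receptor SMADs. TGF-beta and activin act mainly through SMAD2 and SMAD3, and BMPs through SMAD1, SMAD5 and SMAD9; both sets join SMAD4 and enter the nucleus. TGF-beta is secreted in a latent form held in the matrix by LTBP proteins, and in breast epithelium it is known for slowing growth and for promoting the change from epithelial to mesenchymal form.

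The clearest differences in flotillin cells were higher TGFB2, PMEPA1 and ATOH8 and lower INHBA and FST. Some receptor genes were called lower: TGFBR1 of the TGF-beta arm, BMPR1A and BMPR1B of the BMP arm, and the shared ACVR2A. The receptor gene TGFBR2 lay higher without being called. The corepressor genes SKI and SKIL and the inhibitory SMAD gene SMAD6 were called higher. Each of these receptor, corepressor and SMAD6 calls was lost when certain single libraries were left out. Of the 43 genes, 40 had an adjusted p in the authors' deposited table; GREM1, ID4 and INHBB had too few reads. At an adjusted p under 0.05, 8 of the 40 rose and 7 fell, 37.5% in all, against 23.6% of all 19733 genes tested (11.6% higher and 12% lower). Calls are more frequent at higher counts: among genes with a mean of at least 100, 12 of 30 members (40%) and 30.1% of all genes were called. The median log2 fold change of flotillin over control was -0.09 over the members and -0.04 over all tested genes.

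Counts of calls are given for each arm side by side. In the TGF-beta arm 5 of 18 tested genes rose and 3 fell (44.4%), with a median log2 fold change of 0.22 and 11 of 18 above 0. In the BMP arm 2 of 17 rose and 2 fell (23.5%), near the share over all genes, with a median of -0.28 and 6 of 17 above 0. The BMP arm held more genes with low counts. Among genes with a mean of at least 100, 6 of 15 in the TGF-beta arm and 3 of 10 in the BMP arm were called, against 30.1% of all such genes. Of the 5 shared genes, 1 rose and 2 fell. The 3 libraries of one group all lay above the 3 of the other in 11 of 17 TGF-beta genes with recovered reads, 6 of 17 BMP genes and 41.5% of all tested genes. No test was made between the arms.

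**Figure D1:**
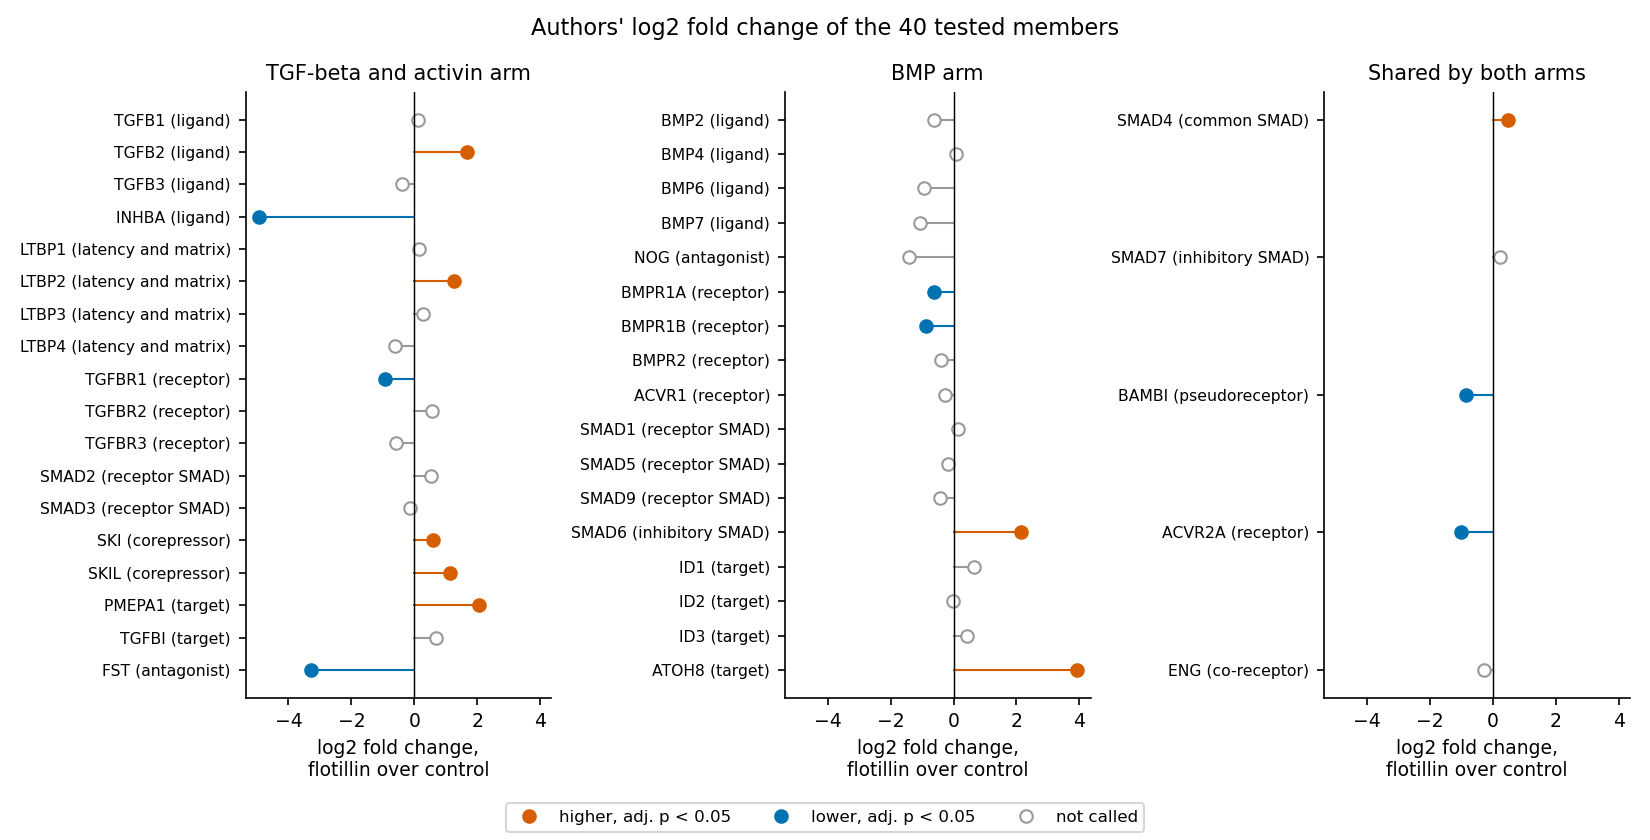
Deposited log2 fold change, flotillin relative to control (horizontal axis), of each of the 40 tested members, by arm; filled points have an adjusted p under 0.05 (orange higher, blue lower) and open points do not. ATOH8 at 3.91 and INHBA at -4.92 lie farthest from 0, and all BMP ligand and receptor genes other than BMP4 lie below 0.

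Among the ligand genes, TGFB2 rose and INHBA fell. TGFB2, a TGF-beta isoform active in development and wound repair (chromosome 1, 218519577 to 218617961, GRCh37), had normalized read counts of 129.0, 238.1 and 100.7 in the control libraries and 528.1, 525.9 and 562.3 in the flotillin libraries. The flotillin values lay close together and all above the control values, which varied more. The means were 156.0 ± 72.6 and 538.8 ± 20.5 (SD, n = 3), 3.45-fold higher in flotillin cells (log2 fold change 1.69, adjusted p = 1.85e-05). TGFB1, the main isoform of most tissues, had overlapping groups (means 1272 and 1388, log2 fold change 0.12, adjusted p = 0.787). TGFB3 had means of 83.2 ± 5.83 and 62.5 ± 2.62; its groups did not overlap, yet its adjusted p was 0.333. Per transcript length the order of the isoforms was the same in both groups: the authors' FPKM was 30.2 and 31.6 for TGFB1, 3.12 and 9.45 for TGFB2, and 1.07 and 0.759 for TGFB3.

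INHBA encodes the subunit of activin A, which signals through the same receptor SMADs as TGF-beta (chromosome 7, where the Tuxedo locus joins it with neighbouring transcripts). It was read 137, 136 and 56 times in the control libraries and 2, 1 and 1 times in the flotillin libraries. Every flotillin library was near the limit of detection and every control library far above it. As normalized counts these were 130.0, 130.1 and 55.3 against 2.00, 1.01 and 1.03, and the ratio of control to flotillin was 78.2 (95% interval 30.3 to 289, counting error only). The deposited log2 fold change was -4.92 (adjusted p = 2.01e-16), while the Tuxedo table gave q = 0.182 for its -5.37. INHBB, another activin subunit gene, had 5 reads over the control libraries and 0 over the flotillin libraries. FST encodes follistatin, which binds and neutralises activin, and it fell as well (chromosome 5, 52776239 to 52782964, GRCh37). Its normalized counts were 49.3, 72.7 and 254.7 in control and 6.0, 12.2 and 5.14 in flotillin. Control library 3 was the highest by far, but the lowest control library was still above every flotillin library. The group means were 125.6 ± 112.4 and 7.77 ± 3.83 (SD, n = 3), 16.2-fold lower in flotillin cells (log2 fold change -3.29, adjusted p = 1.51e-07). For both INHBA and FST the deposited log2 fold change is smaller in size than the ratio of the means implies.

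None of the 4 tested BMP ligand genes was called. BMP2, an inducer of bone and of epithelial differentiation, had group means of 103.8 ± 55.4 and 63.9 ± 31.6 with overlapping libraries (log2 fold change -0.63, adjusted p = 0.328). BMP4, BMP6 and BMP7 had group means between 5.39 and 25.8, and their adjusted p-values were 0.917, 0.278 and 0.184. NOG, which encodes the secreted BMP antagonist noggin, had 22.8, 45 and 5.92 in control and 7.0, 10.1 and 3.08 in flotillin. The groups overlapped through control library 3 (log2 fold change -1.42, adjusted p = 0.0804); the Tuxedo table gave q = 0.00516, and limma without control library 3 gave an adjusted p of 0.0217. GREM1, a further antagonist gene, had 1 read over all 6 libraries.

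**Figure D2:**
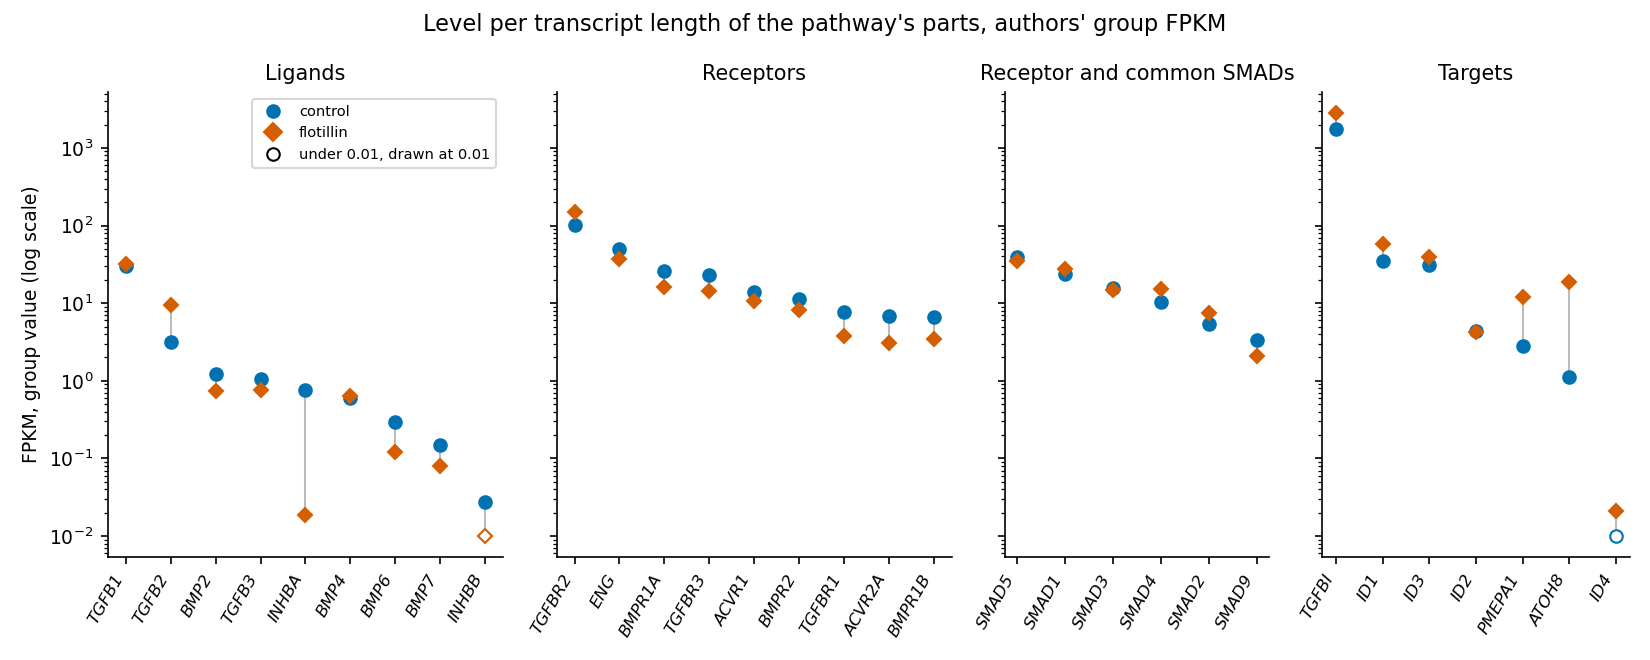
The authors' group FPKM (log scale) of ligand, receptor, SMAD and target genes in control (blue circles) and flotillin (orange diamonds), with 1 value per group and no error. TGFB1 (30.2 and 31.6) and TGFBR2 (102.6 and 148.3) lead their panels in both groups, and every BMP ligand lies under 2 FPKM.

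The latency genes differed less. LTBP2 codes for a microfibril-associated matrix protein of the LTBP family, and its normalized counts were 2614, 1976 and 2961 in control and 5975, 3879 and 9382 in flotillin. All flotillin libraries were above all control libraries, and the flotillin libraries were widely spread. It rose 2.55-fold (2517 ± 499.5 to 6412 ± 2778, SD, n = 3; log2 fold change 1.27, adjusted p = 0.00248). With limma it lost its call without control library 1 or 2 or flotillin library 1 or 3 (adjusted p up to 0.108). LTBP1, LTBP3 and LTBP4, which bind the latent TGF-beta complex, had overlapping groups and log2 fold changes of 0.16, 0.28 and -0.60 (adjusted p = 0.761, 0.586 and 0.327). LTBP1 was the most abundant of the family per length, at 96.8 and 108.2 FPKM, and flotillin library 3 held its highest count (14291 against 6819 to 10533 in control).

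TGFBR1, the type I TGF-beta receptor, fell, and TGFBR2, the type II receptor, did not pass the threshold. TGFBR1 had 1044, 1183 and 1820 in control and 619.1, 636.3 and 828.6 in flotillin. The highest flotillin library was below the lowest control library. The means of 1349 ± 413.6 and 694.7 ± 116.3 (SD, n = 3) differed 1.94-fold (log2 fold change -0.92, adjusted p = 0.0123). Without control library 2, flotillin library 1 or flotillin library 2, limma no longer called it (adjusted p up to 0.122). TGFBR2 had 9403, 13092 and 10447 in control and 18282, 17298 and 14050 in flotillin. These groups did not overlap either, and its log2 fold change of 0.57 missed the threshold more narrowly than that of any other member (adjusted p = 0.0677), followed by SMAD2. Counts as high as those of TGFBR2 and LTBP1 were recovered with less certainty, since 67 of 337 altered control means and 75 of 337 altered flotillin means of 8000 to 19000 also had a whole-number solution. Per length, the level of TGFBR2 was 102.6 FPKM in control and 148.3 in flotillin, and that of TGFBR1 was 7.69 and 3.81. TGFBR3, the co-receptor betaglycan, had overlapping groups (2634 ± 1220 and 1681 ± 721.0; adjusted p = 0.312).

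Of the 4 BMP receptor genes, both type I genes of the BMPR1 pair fell. BMPR1B had 560.7, 670.4 and 598.3 in control and 333.0, 284.7 and 354.7 in flotillin. The groups were far apart relative to their spread. It fell 1.88-fold (609.8 ± 55.8 to 324.1 ± 35.8, SD, n = 3; log2 fold change -0.89, adjusted p = 0.00122). BMPR1A had 1378, 1771 and 1731 in control and 958.1, 1004 and 1197 in flotillin, again without overlap. Its means were 1.54-fold apart (log2 fold change -0.61, adjusted p = 0.0391). BMPR2, the type II BMP receptor, and ACVR1, a type I receptor for BMPs and activin, had log2 fold changes of -0.40 and -0.28 (adjusted p = 0.278 and 0.409). The Tuxedo table called neither BMPR1A (q = 0.417) nor BMPR1B (q = 0.148). Limma lost BMPR1B without control library 2, flotillin library 1 or flotillin library 2 (adjusted p up to 0.0786), and it lost BMPR1A without any single library other than control library 3 (up to 0.164).

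Of the shared receptor genes, ACVR2A and the pseudoreceptor gene BAMBI fell. ACVR2A, a type II receptor for activin and BMPs, had 541.7, 746.0 and 404.8 in control and 266.0, 315.1 and 233.4 in flotillin. No flotillin library reached the lowest control library. The difference was 2.08-fold (564.2 ± 171.7 and 271.5 ± 41.2, SD, n = 3; log2 fold change -1.01, adjusted p = 0.00659). BAMBI codes for a pseudoreceptor that lacks the kinase domain and dampens signalling of both arms. Its normalized counts were 202.1, 187.5 and 289.3 in control and 97.0, 135.8 and 134.7 in flotillin, without overlap, 1.85-fold lower (log2 fold change -0.85, adjusted p = 0.0268). ENG, the co-receptor endoglin, had overlapping groups (log2 fold change -0.29, adjusted p = 0.524). With limma on all libraries BAMBI was not called (adjusted p = 0.0551), nor without any single library (up to 0.192), and ACVR2A lost its call without any single library other than control library 3 (up to 0.108). Over the 9 receptor and co-receptor genes of both arms, 4 fell, none rose, and TGFBR2 alone had a log2 fold change above 0; of all tested genes 12% fell (13.8% of those with a mean of at least 100) and 10216 of 19733 were below 0.

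Of the receptor SMADs, none was called. SMAD2 had 1320, 1505 and 1807 in control and 2142, 2272 and 2307 in flotillin. The groups did not overlap, and its log2 fold change was 0.52 (adjusted p = 0.0711). SMAD3 overlapped (log2 fold change -0.15, adjusted p = 0.730), and the BMP-activated SMAD1, SMAD5 and SMAD9 had log2 fold changes of 0.13, -0.17 and -0.43 (adjusted p = 0.722, 0.636 and 0.264). SMAD4, the partner of both sets, had 1397, 1480 and 1360 in control and 1884, 2041 and 2058 in flotillin. Within each group its libraries lay close together. It rose 1.41-fold (1412 ± 61.1 to 1994 ± 95.8, SD, n = 3; log2 fold change 0.49, adjusted p = 0.0499, just under the threshold). The call of SMAD4 was lost in the Tuxedo table (q = 0.525), in limma scaled to library totals, and in limma without any single library other than control library 3 (adjusted p up to 0.151). For SMAD2, limma without control library 3 gave an adjusted p of 0.0149, and for SMAD9 it gave 0.0331.

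Both corepressor genes rose. SKIL encodes SnoN and SKI its relative, and both proteins bind SMADs and recruit repressors to their target genes. SKIL had 362.4, 466.7 and 389.0 in control and 794.1, 689.0 and 1276 in flotillin. The flotillin libraries were all higher, library 3 most of all. It rose 2.26-fold (406.0 ± 54.2 to 919.6 ± 312.9, SD, n = 3; log2 fold change 1.13, adjusted p = 0.00213). SKI had 1170, 943.0 and 1123 in control and 1542, 1473 and 1892 in flotillin, 1.52-fold higher without overlap (log2 fold change 0.59, adjusted p = 0.0474). In the Tuxedo table SKI is joined with neighbouring genes such as PRKCZ in 1 locus and was not called (q = 0.686). Limma lost SKI when scaled to library totals and without any single library other than control library 3 (adjusted p up to 0.143), and lost SKIL without control library 1 or 2 or flotillin library 1 or 3 (up to 0.0725).

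Of the inhibitory SMAD genes, SMAD6 rose and SMAD7 was not called. SMAD6 acts chiefly on BMP signalling and is itself induced by BMPs (chromosome 15, 66994634 to 67074338, GRCh37). It was read 3, 6 and 6 times in control and 16, 22 and 51 times in flotillin. The gene was scarce in both groups, and all flotillin libraries were above all control libraries. Normalized means were 4.84 ± 1.73 and 30.2 ± 19.5 (SD, n = 3), 6.25-fold apart (log2 fold change 2.14, adjusted p = 0.00193). Without control library 1 or 2 or flotillin library 2 or 3, limma gave adjusted p-values up to 0.0752. SMAD7, which acts on both arms, had 171.7, 128.2 and 176.7 in control and 159.0, 159.1 and 248.8 in flotillin, with overlap (log2 fold change 0.24, adjusted p = 0.611).

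**Figure D3:**
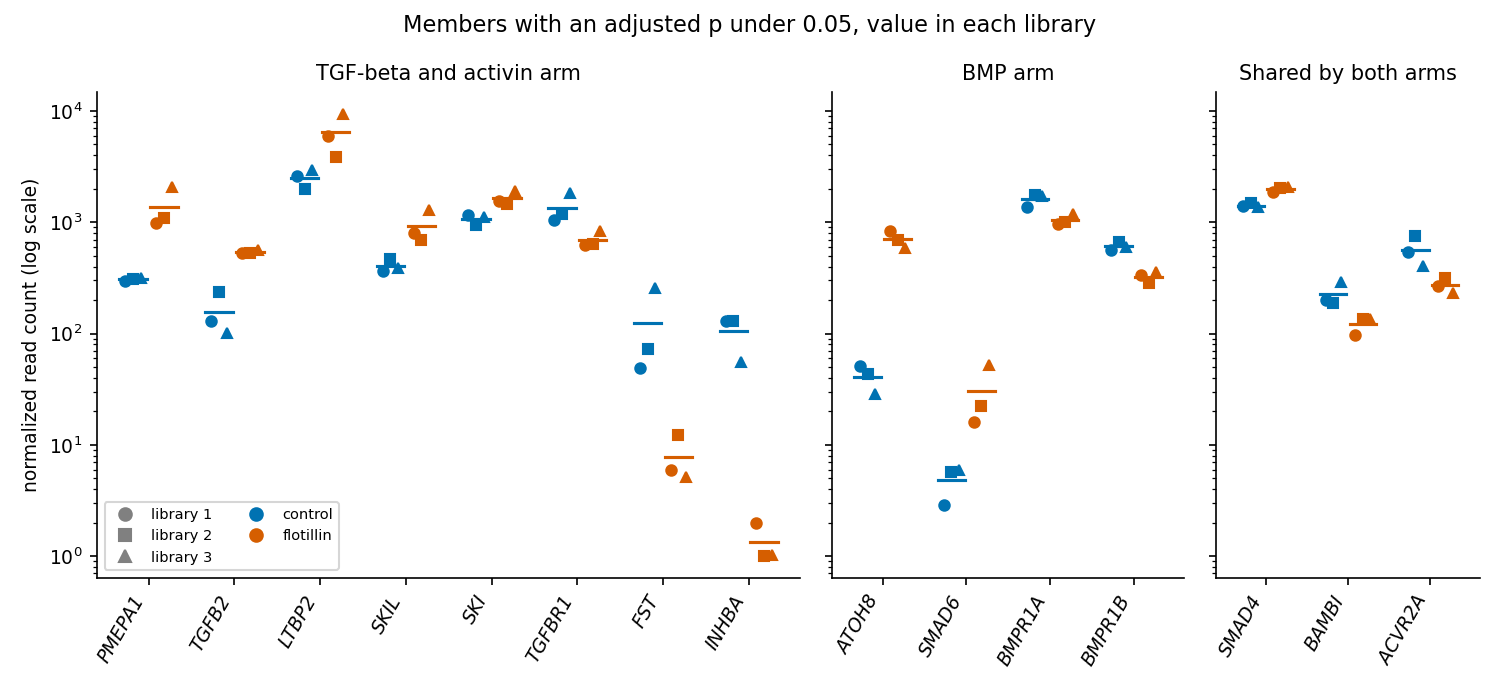
Normalized read counts (log scale) of the 15 called members in each library (circle, square and triangle for libraries 1, 2 and 3; blue control, orange flotillin; bars are group means of n = 3). In each of the 15 the control and flotillin libraries do not overlap, and PMEPA1, SKIL, SMAD6 and LTBP2 are highest in flotillin library 3.

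PMEPA1, a direct TGF-beta target whose protein restrains SMAD signalling at the receptor, had the largest rise of the TGF-beta arm (chromosome 20, 56223448 to 56286592, GRCh37). Its normalized counts were 298.8, 307.0 and 315.9 in control and 975.1, 1089 and 2086 in flotillin. Control libraries were nearly equal, and the flotillin libraries were all higher, with library 3 apart from the other two. The means were 307.3 ± 8.54 and 1383 ± 611.1 (SD, n = 3), 4.50-fold apart (log2 fold change 2.06, adjusted p = 2.16e-08). TGFBI, a TGF-beta-induced matrix protein and the most abundant member per length at 1773 and 2805 FPKM, had deposited means of 65446 and 111717 (log2 fold change 0.70, adjusted p = 0.236). Its reads were too many to recover, so no spread between libraries is given.

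ATOH8, a bHLH transcription factor gene known as a BMP and SMAD1/5 target in endothelium, had the largest rise of all 43 genes (chromosome 2, 85978467 to 86015189, GRCh37). It had 51.2, 43 and 28.6 in control and 829.1, 689.0 and 588.0 in flotillin. No library of one group came near the other group. The means were 41.0 ± 11.4 and 702.1 ± 121.0 (SD, n = 3), 17.1-fold apart (log2 fold change 3.91, adjusted p = 1.47e-34), and the level per length went from 1.12 to 18.9 FPKM.

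The ID genes, the standard early targets of BMP signalling that encode inhibitors of bHLH factors, were not called. ID1 had 573.0, 323.3 and 1128 in control and 969.1, 890.7 and 1431 in flotillin. ID2 had 31.3, 16.3 and 150.1 against 54.0, 44.6 and 94.6. ID3 had 294.1, 131.0 and 806.6 against 528.1, 292.8 and 924.2. All 3 genes were highest in library 3 of both groups. Without control library 3 the groups of ID1 and of ID2 would not overlap, while those of ID3 would overlap by a small margin (294.1 against 292.8). Deposited log2 fold changes were 0.64, -0.03 and 0.43 (adjusted p = 0.263, 0.978 and 0.592), and ID4 had 1 read over the control libraries and 4 over the flotillin libraries. Library 3 stood apart in both groups by cell cycle genes too: 10 of 10 were higher there, and their sum was 6584, 14923 and 62336 in control and 16683, 15051 and 69938 in flotillin. Whether cell cycle activity has a part in the ID values was not tested.

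Without library 3 of both groups, limma gave log2 fold changes of 1.11 for ID1, 1.08 for ID2 and 1.00 for ID3, with adjusted p-values of 0.0112, 0.0576 and 0.113. With control library 3 alone left out, ID1 had an adjusted p of 0.0166 and ID2 of 0.0437. Over the pathway as a whole library 3 had no direction common to the members. Of 38 members with a mean of at least 10, it was higher in both groups for 16 and lower in both for 12. Of all 15894 genes with such a mean and recovered control reads, it was higher in both for 5842 and lower in both for 5549. Without library 3 of both groups, limma called 21 members, 10 higher and 11 lower, but it also called 44.1% of all genes. The BMP arm then had 8 calls among 16 genes fitted, 3 higher and 5 lower. Those added to the members called in the deposited table were BMPR2, NOG, SMAD9 and TGFBR3 with lower values and ID1, SMAD2 and TGFBR2 with higher values, and SMAD4 was lost.

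**Figure D4:**
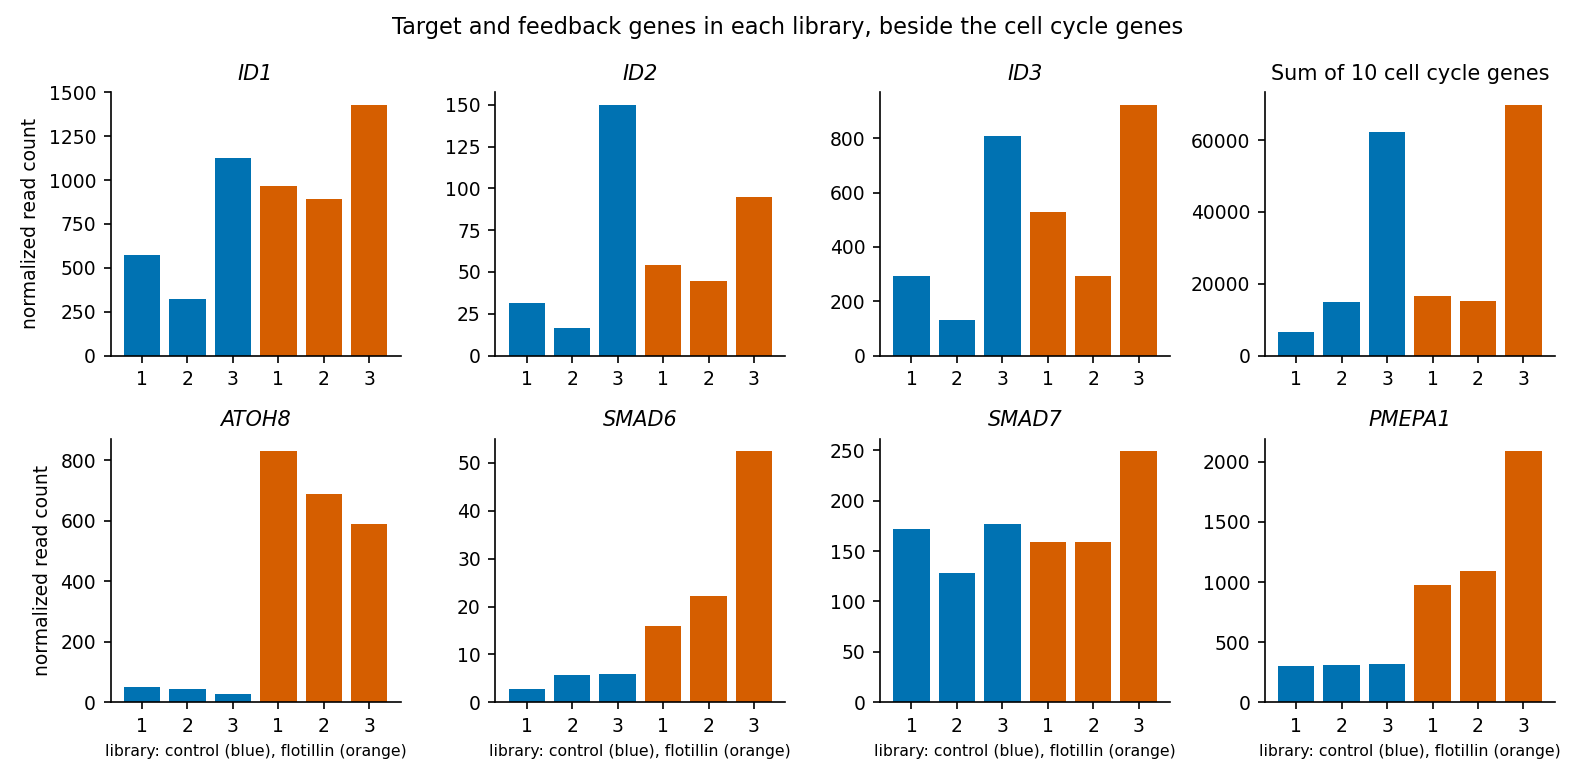
Normalized read counts of 7 target and feedback genes, and the sum of 10 cell cycle genes, in libraries 1 to 3 of control (blue) and flotillin (orange). ID1, ID2 and ID3 peak in library 3 of both groups, as does the cell cycle sum (62336 and 69938), whereas ATOH8 is lowest there in both groups and SMAD6, SMAD7 and PMEPA1 stand out in flotillin library 3.

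The promoters of members were searched for elements that SMADs are known to bind, because several SMAD targets among the members rose. RefSeq promoters (GRCh38.p14, 250 bases before to 50 after the first listed start) matched 39 of the 43 genes. The CAGA box AGCCAGACA, read on both strands, was in 0 of 39 members and 0.315% of all 27305 promoters. The palindromic element GTCTAGAC was in 1 of 39, SMAD6, and in 0.201% of all. The GC-rich element GGCGCC was in 14 of 39 members (35.9%) and 19% of all; median GC content was 68.0% in members and 58.3% in all promoters. Of the 14, SKIL, PMEPA1, LTBP2, SMAD4 and BAMBI were called. SMAD2, SMAD3, TGFBI, BMP4, BMPR2, ACVR1 and SMAD5 were not, so the element was not confined to called genes. INHBB and GREM1 held it too but were not tested. Of all 40 tested members, 37.5% were called. ATOH8 had none of the 3 elements in this window. A match is a run of letters, not a measured binding site. The 250 bases before the start are printed for SMAD6 (chr15:66701986-66702235, plus strand), PMEPA1 (chr20:57711473-57711722, minus strand), SKIL (chr3:170357465-170357714, plus strand) and ATOH8 (chr2:85753741-85753990, plus strand), the called repressors and targets with the largest rises, with any element found in capitals.
SMAD6: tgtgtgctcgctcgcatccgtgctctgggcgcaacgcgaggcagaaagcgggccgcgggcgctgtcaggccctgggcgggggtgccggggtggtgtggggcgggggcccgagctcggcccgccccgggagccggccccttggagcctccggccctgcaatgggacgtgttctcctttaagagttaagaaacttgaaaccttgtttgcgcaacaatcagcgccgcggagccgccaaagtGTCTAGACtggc
PMEPA1: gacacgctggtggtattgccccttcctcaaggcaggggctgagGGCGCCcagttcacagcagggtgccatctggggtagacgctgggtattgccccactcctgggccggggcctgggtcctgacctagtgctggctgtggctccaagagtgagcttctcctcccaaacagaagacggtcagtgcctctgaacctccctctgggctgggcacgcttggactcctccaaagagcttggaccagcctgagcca
SKIL: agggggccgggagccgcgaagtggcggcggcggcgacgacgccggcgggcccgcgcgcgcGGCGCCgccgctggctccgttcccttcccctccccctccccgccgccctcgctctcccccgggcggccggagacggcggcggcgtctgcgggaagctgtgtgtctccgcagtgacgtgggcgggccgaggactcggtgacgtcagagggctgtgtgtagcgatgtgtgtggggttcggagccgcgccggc
ATOH8: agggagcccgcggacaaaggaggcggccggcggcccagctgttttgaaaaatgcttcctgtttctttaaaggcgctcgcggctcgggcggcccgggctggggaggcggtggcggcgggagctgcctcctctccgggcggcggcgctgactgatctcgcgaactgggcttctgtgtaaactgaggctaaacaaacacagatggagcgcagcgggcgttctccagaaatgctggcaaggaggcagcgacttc

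The 78 other genes of the pathway that were in the table, listed by role, were described in the same way. Of 57 tested, 9 rose and 10 fell (33.3%), against 23.6% of all tested genes and 30.1% of those with a mean of at least 100. FBN1, ITGB6, STRAP, NEDD4L, CTGF and CYR61 kept their calls in limma without any single library, and the other 13 lost theirs without flotillin library 2. Among 6 tested receptor and co-receptor genes 3 fell (50%, against 12% of all tested genes) and none rose. Those that fell were ACVR1B, the activin type I receptor (1627 ± 476.7 to 787.0 ± 83.7, log2 fold change -1.01, adjusted p = 0.00437), ACVR2B, an activin type II receptor (69.8 ± 21.2 to 22.6 ± 5.39, -1.50, adjusted p = 0.00157), and RGMB, a BMP co-receptor (1036 ± 125.2 to 591.4 ± 54.7, -0.79, adjusted p = 0.00432). Of 10 other ligands 1 was called, GDF15, a stress-induced family member (log2 fold change -1.09, adjusted p = 0.0259), which neither limma (adjusted p = 0.0723) nor the Tuxedo table (q = 0.503) called. ACVR1B was not called in the Tuxedo table either (q = 0.846).

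Among 18 tested extracellular regulators 3 rose and 2 fell (27.8%), near the 23.6% of all tested genes and the 30.1% of those with a mean of at least 100. FBN1, the microfibril protein to which LTBPs attach, had 239.1, 274.5 and 270.5 in control and 1754, 1225 and 4657 in flotillin (log2 fold change 2.98, adjusted p = 1.93e-10). ITGB6, the integrin subunit that activates latent TGF-beta in epithelium, had 2357, 3232 and 2367 in control and 238.0, 251.3 and 431.8 in flotillin (log2 fold change -2.97, adjusted p = 2.35e-19). Neither gene's groups overlapped. VASN, which binds TGF-beta, rose by 1.17 on the log2 scale (adjusted p = 0.0108; Tuxedo q = 0.315). TLL1, a protease that cleaves the BMP antagonist chordin, fell by 1.95 (adjusted p = 0.000485).

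Of 12 intracellular regulators 3 rose and 2 fell (41.7%), against 23.6% of all tested genes and 30.1% of those with a mean of at least 100. The risers were USP15, a deubiquitinase of the receptor complex (log2 fold change 1.33), FKBP1A, which binds type I receptors (1.27), and STRAP, an adaptor that supports SMAD7 (1.21), with adjusted p-values of 0.00422, 0.000324 and 0.000122; limma on all libraries did not call USP15 (adjusted p = 0.0505). NEDD4L, a ubiquitin ligase for active SMAD2 and SMAD3, fell (2703 ± 149.0 to 1256 ± 80.3, log2 fold change -1.08, adjusted p = 1.41e-06), as did TGIF2, a SMAD corepressor (-1.16, adjusted p = 0.000606). Of 11 tested TGF-beta-induced genes, CTGF (3.89), CYR61 (2.26) and TPM1 (0.74) rose and COL1A1 (-1.51) and BHLHE40 (-0.91) fell. That was 45.5% of those tested, against 23.6% of all tested genes and 30.1% of those with a mean of at least 100. Limma on all libraries did not call BHLHE40 (adjusted p = 0.0506), and the Tuxedo table did not call TPM1 (q = 0.0679). CTGF and CYR61 are also targets of other pathways, and many genes of this list respond to serum.

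The 15 calls were recomputed under 14 alternatives. TGFB2, PMEPA1 and ATOH8 were called in all 14 and FST in all 13 that could test it; INHBA was called in 12 of 13, the exception being the Tuxedo table. At the other end, BAMBI and SMAD4 were called in 5 of 14 and SKI in 6 of 14. The deposited table, the Tuxedo table and limma all called 9 of the 15: ACVR2A, ATOH8, FST, LTBP2, PMEPA1, SKIL, SMAD6, TGFB2 and TGFBR1. No called member changed sign under any of the 14. Limma called 14 members from all libraries, with 23.2% of all genes called, 14 with a pseudocount of 5 (23.3% of all genes), 13 after scaling to library totals (23.1%), 11 with no filter on low counts (12.3%) and 21 with a term for library 3 (45.9%). The Tuxedo table called 11, with 16.9% of all genes. Without control library 1, 2 or 3, limma called 7, 5 and 19 members, and 10.6%, 10.1% and 40.1% of all genes. Without flotillin library 1, 2 or 3 it called 6, 7 and 7 members, and 6.19%, 7.06% and 14.1% of all genes.

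**Figure D5:**
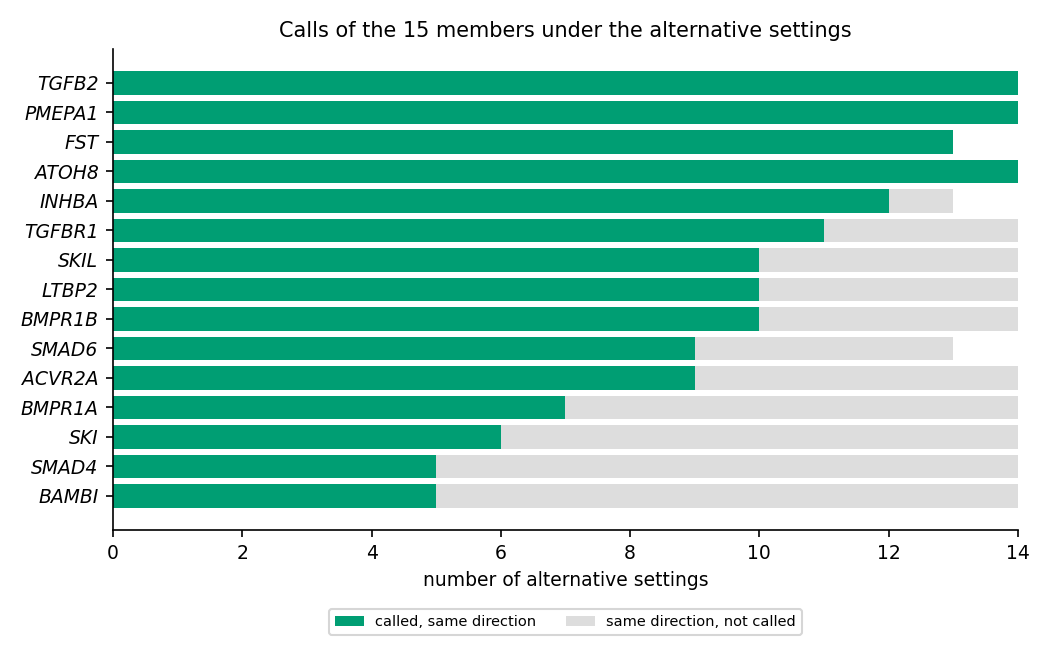
For each of the 15 called members, the number of alternative settings in which it was again called in the same direction (green) or kept its direction without a call (grey), out of 14, or of 13 for FST, INHBA and SMAD6, whose means over both groups are under 100. Bars without grey belong to TGFB2, PMEPA1, ATOH8 and FST.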

How the data were processed

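RNA-seq of 3 control and 3 flotillin libraries (stranded mRNA kit, per the labels' protocols) was used as deposited; samples were grouped by their titles. The submitters' processing notes name HISAT2 2.1.0, HTSeq 0.9.1, DESeq2 1.18.1 and build GRCh37. In the first table the authors deposited group signal (the mean normalized read count, as its values show), a log2 fold change, p-values and adjusted p-values, per the file headers. The second, named for the Tuxedo pipeline, holds the authors' group FPKM, log2 fold change, test score, p-values and q-values, per the file headers; the aligner behind it is not named in those sources. Log2 fold changes are those of the first table unless another source is named, and folds are ratios of the means. The deposited log2 fold changes are not the log2 of those ratios. For INHBA, FST and SMAD6, which had few reads in a group, they are smaller in size than the ratios imply.

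Means deposited to 15 digits were solved for whole reads per library; a single solution was found for 99.56% of control and 99.52% of flotillin means above 0, the rest exceeding a search limit of 20000. Simulated reads were returned exactly in 100.0% of genes. Solved libraries carry no replicate numbers and are ordered by falling size factor. A gene was called at a deposited adjusted p under 0.05. No count model was run, because the columns are means and the highest genes were unsolved. Instead limma 3.58.1 (trend, robust, Benjamini-Hochberg adjustment) was fitted to log2(normalized count + 1) of 15839 genes with a mean of at least 10; in data simulated for this comparison over those genes it called 52% of genes changed 2-fold and 99% of those changed 4-fold, with a false share of 6.21% among its calls. In that simulation few genes changed, all genes shared a common dispersion (0.0457) and no library stood apart. The data differ in these respects, so the simulated shares may not hold for them. Counting intervals cover counting error only, since reads are not independent molecules.

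The members, lists and tests were chosen with earlier results of these data known. Every member could be named: called members by library, others by group values or counts. Of the other pathway genes, called ones were named, at most 3 in each direction per list. Some genes counted in those lists are not reported here by name. Genes missing a promoter in the RefSeq table are BMP2, BMP7, NOG and SKI.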

Additional observations from a re-analysis of the deposited data

How the results depend on the processing

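The deposited table called 15 members (8 TGF-beta arm, 4 BMP arm, 3 shared) and 19 other pathway genes. The Tuxedo table shared 10 of the 15 and added NOG, and a deposited adjusted p under 0.01 left 10. Without library 3 of both groups the BMP arm had 8 calls among 16 genes fitted, while 44.1% of all genes were called. With a term for library 3, an alternative chosen after seeing the data, it had 7 of 16, while 45.9% of all genes were called. Leaving out 1 library at a time gave 5 to 19 members, 4 to 9 in the TGF-beta arm, 1 to 8 in the BMP arm (2 without control library 1, flotillin library 1 or flotillin library 3) and 6 to 21 other pathway genes, highest without control library 3 for the members. Of all genes, 6.19% to 40.1% were called in these fits. ID2 had a deposited log2 fold change of -0.03, and the ratio of its group means was 0.977. Its control counts were 31.3, 16.3 and 150.1. In limma, which compares averages of log2 values, its log2 fold change was 0.50 on all libraries and 1.40 without control library 3. The cause was not tested. No paired analysis was possible because the deposited columns are group means and the recovered libraries carry no replicate numbers. Counts under about 10 normalized reads (BMP6, BMP7, NOG, INHBA and FST in flotillin cells, SMAD6 in control cells) limit the precision of their folds.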
